A study of Mus musculus with 2 samples.

Results

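The genes described here are 47 mitotic genes, made up of mitotic kinases and cyclins, spindle checkpoint proteins and proteins of the kinetochore, with a few genes of chromosome cohesion, cytokinesis and proliferation. They were chosen by name, and every non-control probe of the microarray whose gene name is 1 of the 47 was taken. Of the 47 names, 46 are on the array, among 37074 gene names in all, and both arrays detected all 46 well above background. The name *Sgol2* is not on the array. The reference gene table lists it as a synonym of *Sgo2a*, and the array has a gene called *Sgol2a*, which is given apart and is not counted.

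When a cell enters mitosis, cyclin-dependent kinase 1 with its cyclins, the Polo kinase and the Aurora kinases phosphorylate the proteins that condense chromosomes and build the spindle. Kinetochores, large protein assemblies on the centromeric chromatin, then bind spindle microtubules, and the spindle checkpoint keeps the anaphase-promoting complex inactive until every kinetochore is attached. Protein phosphatase 2A (PP2A) with a regulatory subunit of the B56 family opposes these kinases at kinetochores. It binds there to BubR1, the product of *Bub1b*, and at centromeres to shugoshin, the product of *Sgol1*, which protects the cohesin that holds sister chromatids together. *Ppp2r5d*, the gene silenced in the study, encodes the delta member of the B56 family. In the heart, cardiomyocytes largely leave the cell cycle soon after birth, so that mitotic transcripts come from cells that still divide or from cultured cells that proliferate.

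The cells were MCMs, cardiomyocytes of the mouse, obtained commercially as a culture and passaged before use. A culture received siRNA-NC as the negative control, and another received siRNA-*Ppp2r5d*, an interfering RNA against *Ppp2r5d*, both with RNAiMAX. Both cultures were grown in DMEM with 2% fetal bovine serum, both were given medium without glucose 48 h after transfection, and both were collected at 64 h. No age, strain or sex of the source animals is given, and the labels name no other treatment. Each RNA was hybridized to 1 array in 1 colour, so no value below has a replicate check, no test was run, and the number of arrays limits the precision.

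The 2 arrays were of similar brightness. Among 59305 non-control spots, 35544 passed the scanner's test for signal above background with siRNA-NC and 35174 did so with siRNA-*Ppp2r5d*, and 0 were saturated on either array. The 75th percentile of intensity was 593 with siRNA-NC and 519 with siRNA-*Ppp2r5d*. Intensities below are the background-corrected scanner values of each array before scaling, in arbitrary units, and fold changes are taken after each array was divided by its own 75th percentile, so that equal intensities on both arrays correspond to a slightly higher level with siRNA-*Ppp2r5d*. The silenced gene, *Ppp2r5d*, had an intensity of 4701 with siRNA-NC and 676 with siRNA-*Ppp2r5d*, a log2 fold change of -2.60, or 6.08-fold lower. The gene values of the other B56 genes were close to level, between -0.030 for *Ppp2r5b* and 0.15 for *Ppp2r5e* on the log2 scale. Single probes spread further, from -0.27 to 0.50 in *Ppp2r5e* and from -0.19 to 0.31 in *Ppp2r5c*. *Ppp2r1a*, the main scaffold subunit of PP2A, had a log2 fold change of 0.38.

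Of 18 cardiomyocyte markers, 10 were well above background on both arrays, with a median log2 fold change of 0.25, and *Myh6* and *Ryr2* were so on 1 array only. Among them were cardiac actin *Actc1*, with 6443 and 5268, and the cardiac transcription factor *Nkx2-5*, with 1078 and 1001. Of the 10, 7 were above 0 and 3 were at least 1.5-fold higher, the myosin light chain *Myl3* at 0.90 and the natriuretic peptide genes *Nppb* at 0.68 and *Nppa* at 0.62, all of them dim. The sarcomere and calcium handling genes *Actn2*, *Myl2*, *Myl7*, *Ckm* and *Pln* and the transcription factor *Tbx5* were not above background on either array. Of 12 fibroblast markers, 10 were measured, with collagen *Col1a1* at 7339 and 5849, and their median log2 fold change was 0.036. They lay on both sides of 0, with 0 at least 1.5-fold lower and 2 at least 1.5-fold higher, *Lum* (156 and 288, 2.12-fold) and *Pdgfra* (110 and 148, 1.54-fold). Of 6 macrophage and leukocyte markers, 5 were measured, with a median of 0.035 and *Cd68* (359 and 184) lowest at -0.77. *Itgam* had 4006 and 3592, and *Ptprc* had 888 and 848 over 1 of its 7 probes. *Emr1* is on the array as *Adgre1*, which was not above background. Of 6 endothelial markers, 1 was measured on both arrays, *Pecam1* with 55.6 and 41.4. Of 6 smooth muscle markers, 5 were measured, with a median of -0.020 and 3 below 0. With siRNA-*Ppp2r5d*, 0 of them were at least 1.5-fold lower and 2 at least 1.5-fold higher. These were calponin *Cnn1* (288 and 1341, 5.32-fold) and *Tagln* (8174 and 12887, 1.80-fold). The part that a change in the mix of cells had in the results below was not tested.

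The 46 measured mitotic genes lay together on the lower side. Their median log2 fold change was -0.74, or 1.67-fold lower with siRNA-*Ppp2r5d*, where the median of all 20350 genes measured on both arrays was 0.026. Of the 46, 44 were below 0 and 2 were above, a share of 95.7% below 0 beside 45.8% of all measured genes, and with other scalings described below the number ran from 43 to 46. At 1.5-fold, 34 of 46 (73.9%) were lower and 0 were higher, beside 5.42% of all 21667 genes lower and 3.87% higher. At the 2-fold threshold that the study used, 2 of 46 (4.35%) were lower and 0 were higher, beside 1.46% of all genes lower and 1.08% higher. The 2 genes were *Top2a* and *Cenpm*. In bulk RNA, fewer cells in mitosis and less of these transcripts in each cell cannot be told apart.

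**Figure D1:**
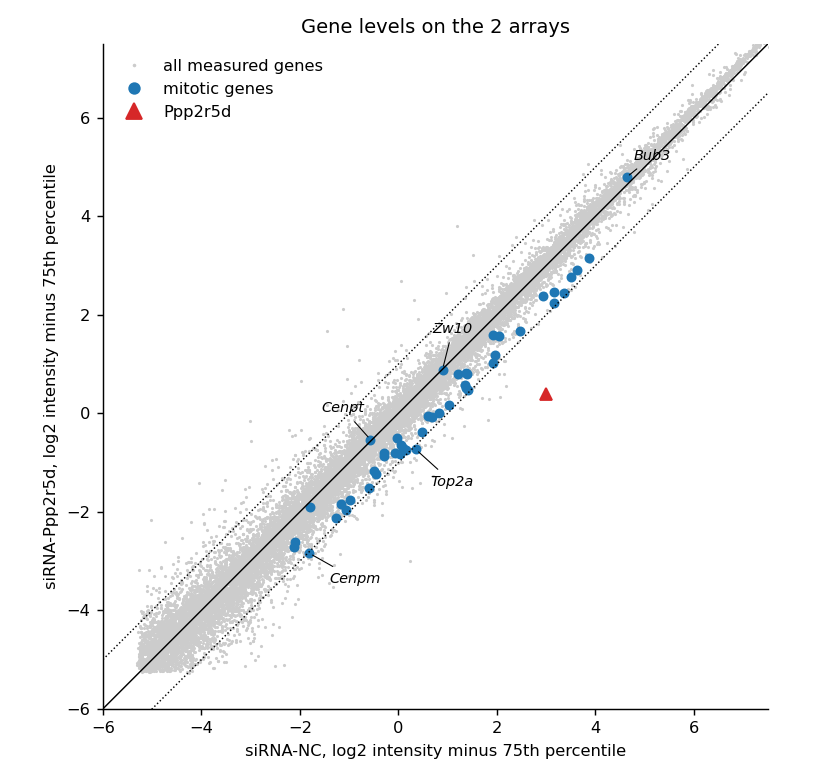
Level of each gene on the 2 arrays, as log2 intensity minus the 75th percentile of that array, with siRNA-NC on the horizontal axis and siRNA-Ppp2r5d on the vertical axis. Grey dots are all 20350 measured genes, blue dots the 46 mitotic genes and the red triangle Ppp2r5d. The solid line marks equal levels and the dotted lines 2-fold differences. Most blue dots form a band below the solid line and inside the 2-fold line, while Bub3, Zw10, Cenpt and Cdc25b lie on or next to it.

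The values of the band lay close together, but so did those of most measured genes around the median of all genes. The SD of the log2 fold changes over the 46 genes was 0.27, 39 of the 46 lay within 0.3 of their median, and their quartiles were -0.87 and -0.57. Ranked from the lowest of all 20350 measured genes, *Gata4* at -0.18 was number 4607 and *Ppp1cc* at 0.19 number 15553. The middle of all genes was thus about as narrow as that of the 46. Of all measured genes, 2.71% lay below the median of the mitotic genes. The 46 genes covered intensities from 136 for *Ttk* to 14701 for *Bub3* with siRNA-NC, with a median of 922. The arrays carry 92 probes of these genes, each as 1 spot. Both arrays detected 80 of them, and the rest were above background on 1 array or none, 3 on the siRNA-NC array only, 0 on the siRNA-*Ppp2r5d* array only and 9 on neither. Among the 80 probes, 77 were below 0 and 56 were at least 1.5-fold lower. For 23 genes several probes were measured, and in 22 of them all probes lay on the same side of 0, with a median range of 0.13 between the probes of a gene. The largest range, 0.46, was that of *Ttk*. No such counts were made over the probes of all genes, so these probe counts have no share of all probes beside them. The error of a probe's log2 fold change, as the scanner software estimates it, had a median of 0.20, and the SD between spots of the same probe was 0.039 over 154 probes with 10 spots each. Neither of these covers the difference between cultures.

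**Figure D2:**
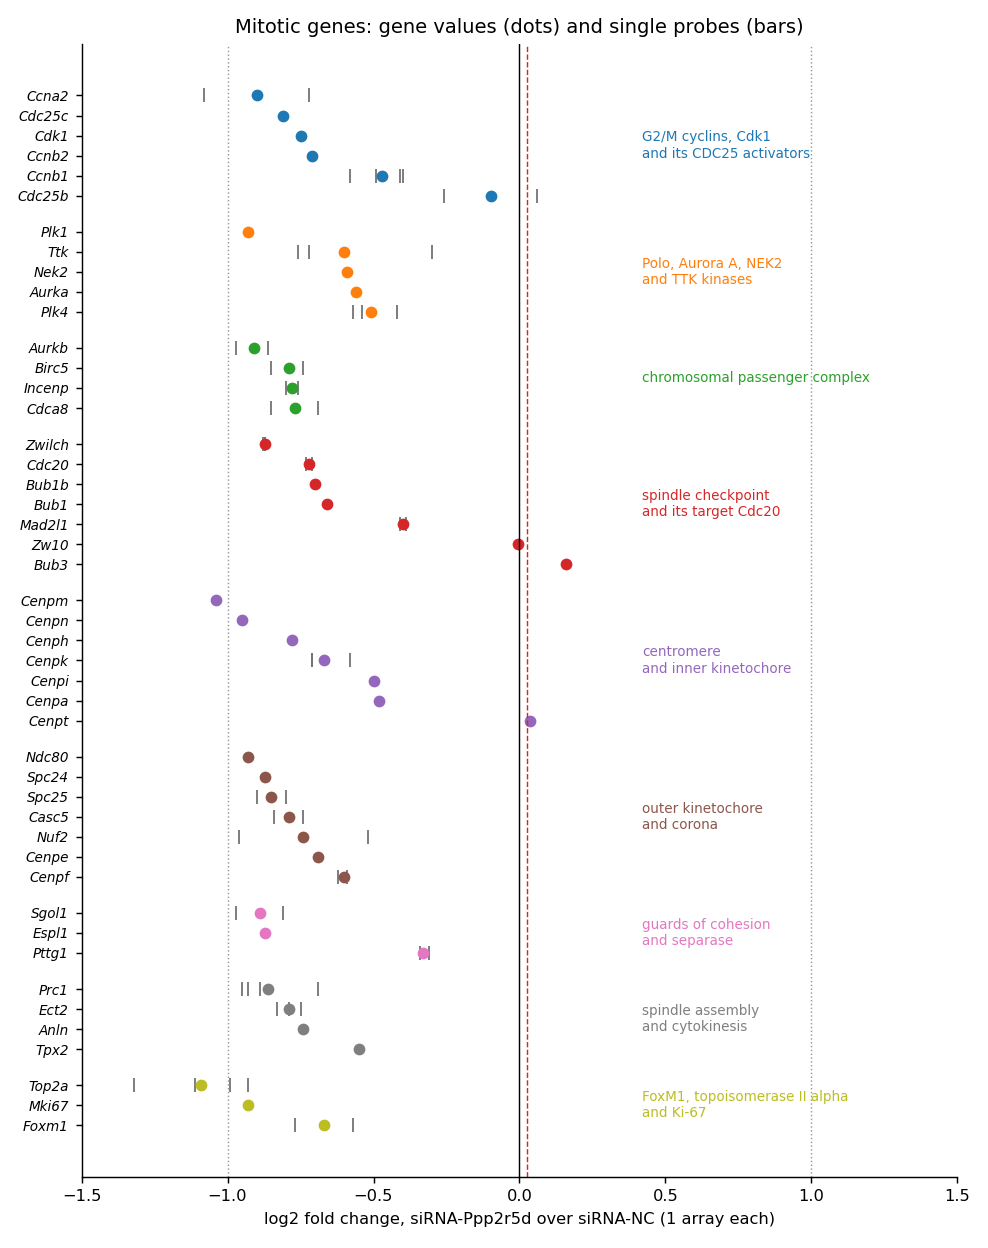
Log2 fold change, siRNA-Ppp2r5d over siRNA-NC, of each of the 46 measured mitotic genes (dots), in the 9 groups of the text, with the single probes of genes that have several (short grey bars). The dotted lines mark 2-fold, the solid line 0 and the dashed red line the median of all measured genes at 0.026. All dots but those of Bub3 and Cenpt lie below 0, and under spike-in scaling these 2 also do, at -0.019 and -0.15, while Zw10 moves to 0.021 when arrays are scaled to the median of detected probes.

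Many genes of this set are known to be transcribed together late in the cell cycle, through a promoter element called the CHR (cell cycle genes homology region), which the MuvB complex binds, and through CCAAT boxes, which the factor NF-Y binds. The promoters below are shown so that these elements can be seen in genes of the band and in 2 genes outside it. Sequences are from RefSeq, assembly GRCm38.p6, and run 5′ to 3′ on the strand of the gene, from 250 bases before the annotated start to 30 after it. Capitals mark the CHR, searched as TTTGAA or TTCGAA, and the NF-Y box, searched as CCAAT, both on either strand, so that TTCAAA and ATTGG are also in capitals. *Cdk1* encodes the kinase that drives entry into mitosis, and *Ccnb2* a cyclin that activates it. *Cdc20*, the activator of the anaphase-promoting complex that the checkpoint holds back, and *Top2a*, topoisomerase II alpha, which untangles sister chromatids, follow.

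Cdk1 (chr10:69352883-69353162, minus strand): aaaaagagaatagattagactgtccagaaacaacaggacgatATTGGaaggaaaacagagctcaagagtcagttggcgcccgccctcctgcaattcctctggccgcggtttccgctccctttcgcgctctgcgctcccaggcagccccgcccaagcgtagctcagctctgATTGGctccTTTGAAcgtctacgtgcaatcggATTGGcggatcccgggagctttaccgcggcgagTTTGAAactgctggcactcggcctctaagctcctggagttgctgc
Ccnb2 (chr9:70421525-70421804, minus strand): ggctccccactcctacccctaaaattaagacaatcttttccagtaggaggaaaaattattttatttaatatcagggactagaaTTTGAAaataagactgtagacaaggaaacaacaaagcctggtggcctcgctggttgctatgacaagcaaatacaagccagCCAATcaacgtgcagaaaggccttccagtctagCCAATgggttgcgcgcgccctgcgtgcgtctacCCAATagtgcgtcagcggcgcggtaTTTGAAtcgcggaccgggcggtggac
Cdc20 (chr4:118437314-118437593, minus strand): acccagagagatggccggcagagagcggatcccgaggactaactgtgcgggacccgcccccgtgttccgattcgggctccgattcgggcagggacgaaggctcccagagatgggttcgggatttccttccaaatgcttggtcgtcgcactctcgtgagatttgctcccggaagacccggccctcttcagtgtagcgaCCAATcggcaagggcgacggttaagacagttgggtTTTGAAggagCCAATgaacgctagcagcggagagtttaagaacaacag
Top2a (chr11:99024160-99024439, minus strand): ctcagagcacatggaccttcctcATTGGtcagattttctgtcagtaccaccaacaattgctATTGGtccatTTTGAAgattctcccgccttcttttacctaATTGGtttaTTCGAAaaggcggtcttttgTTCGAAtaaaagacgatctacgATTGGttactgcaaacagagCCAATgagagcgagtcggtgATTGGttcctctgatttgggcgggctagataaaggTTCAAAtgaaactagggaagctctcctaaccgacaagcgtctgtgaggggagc

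*Ccnb2* holds NF-Y boxes that begin at bases -87, -54 and -21 relative to the start and a CHR at base 4 after it. In *Cdc20* the CHR begins at base -18, between boxes at -53 and -8. *Top2a*, the lowest gene of the set, has 4 CHR and 6 NF-Y matches. The next promoters belong to *Cenpn*, an inner kinetochore gene of the band, and *Bub1b*, whose product carries B56-PP2A at kinetochores, followed by the 2 genes above 0, *Bub3* (the earlier of its 2 annotated starts) and *Cenpt*.

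Cenpn (chr8:116921490-116921769, plus strand): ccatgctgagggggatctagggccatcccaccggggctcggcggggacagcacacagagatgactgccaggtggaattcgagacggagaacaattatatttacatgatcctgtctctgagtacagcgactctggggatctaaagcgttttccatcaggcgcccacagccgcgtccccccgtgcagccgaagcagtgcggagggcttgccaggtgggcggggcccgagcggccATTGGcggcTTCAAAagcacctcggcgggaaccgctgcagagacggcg
Bub1b (chr2:118597961-118598240, plus strand): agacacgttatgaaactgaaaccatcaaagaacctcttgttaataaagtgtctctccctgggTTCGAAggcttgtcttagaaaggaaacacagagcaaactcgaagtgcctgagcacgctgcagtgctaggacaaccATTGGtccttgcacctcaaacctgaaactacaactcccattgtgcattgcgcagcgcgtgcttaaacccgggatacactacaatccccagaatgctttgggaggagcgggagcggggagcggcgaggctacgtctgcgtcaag
Bub3 (chr7:131560120-131560399, plus strand): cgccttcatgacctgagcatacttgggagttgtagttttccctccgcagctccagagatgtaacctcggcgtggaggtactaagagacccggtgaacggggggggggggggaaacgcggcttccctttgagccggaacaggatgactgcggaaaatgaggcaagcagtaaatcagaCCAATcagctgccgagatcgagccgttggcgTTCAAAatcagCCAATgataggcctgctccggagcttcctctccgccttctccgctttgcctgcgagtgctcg
Cenpt (chr8:105851979-105852258, minus strand): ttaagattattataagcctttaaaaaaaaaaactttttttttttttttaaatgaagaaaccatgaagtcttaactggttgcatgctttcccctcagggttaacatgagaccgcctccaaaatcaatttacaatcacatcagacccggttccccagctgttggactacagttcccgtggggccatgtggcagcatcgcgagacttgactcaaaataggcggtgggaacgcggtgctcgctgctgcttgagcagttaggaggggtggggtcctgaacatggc

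*Bub1b* has a further CHR at base 40 after the start, outside the bases printed. *Bub3*, which was not lower, holds a CHR at base -43 between NF-Y boxes at -74 and -32, an order also seen in *Cdc20*. *Cenpt* holds no match of either kind.

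A promoter was given for 39 of the 47 genes, and *Sgol2* is among them through *Sgo2a*. A CHR was present in 26 of the 39 (66.7%), where 21.7% of all 27025 genes with a promoter and 19.2% of all 32851 promoters of the same length hold it. An NF-Y box was present in 29 (74.4%), beside 41.1% of all genes and 37.4% of all promoters. Both were present in 22 (56.4%), beside 9.65% of all genes and 7.52% of all promoters. Other genes of mitosis, from the 5 lists described below, lay in between. Of 89 such genes with a promoter, 39.3% held a CHR, 47.2% an NF-Y box and 24.7% both. In the shares of genes, a CHR and an NF-Y box in different promoters of the same gene also count as both. Of the 28 genes that were at least 1.5-fold lower, with *Sgol2* taken at the value of *Sgol2a*, 21 held a CHR, 23 (82.1%) an NF-Y box and 18 (64.3%) both. Of the other 11, 5 (45.5%) held a CHR, 6 (54.5%) an NF-Y box and 4 (36.4%) both. Of the 35 CHR matches, 24 (68.6%) lay within 50 bases of the start, where 24.7% of the matches of all genes do. For NF-Y boxes it was 22 of 56 (39.3%), beside 28.3%. In member promoters 1 CHR and 1 NF-Y box overlapped, in *Cdca8*. The match and the fold change did not go together in each gene. *Birc5* and *Nuf2* were lower with neither motif in the window, and *Bub3*, *Zw10* and *Cdc25b* hold matches and were not in the band. A match is a string of letters and was not tested for binding.

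**Figure D3:**
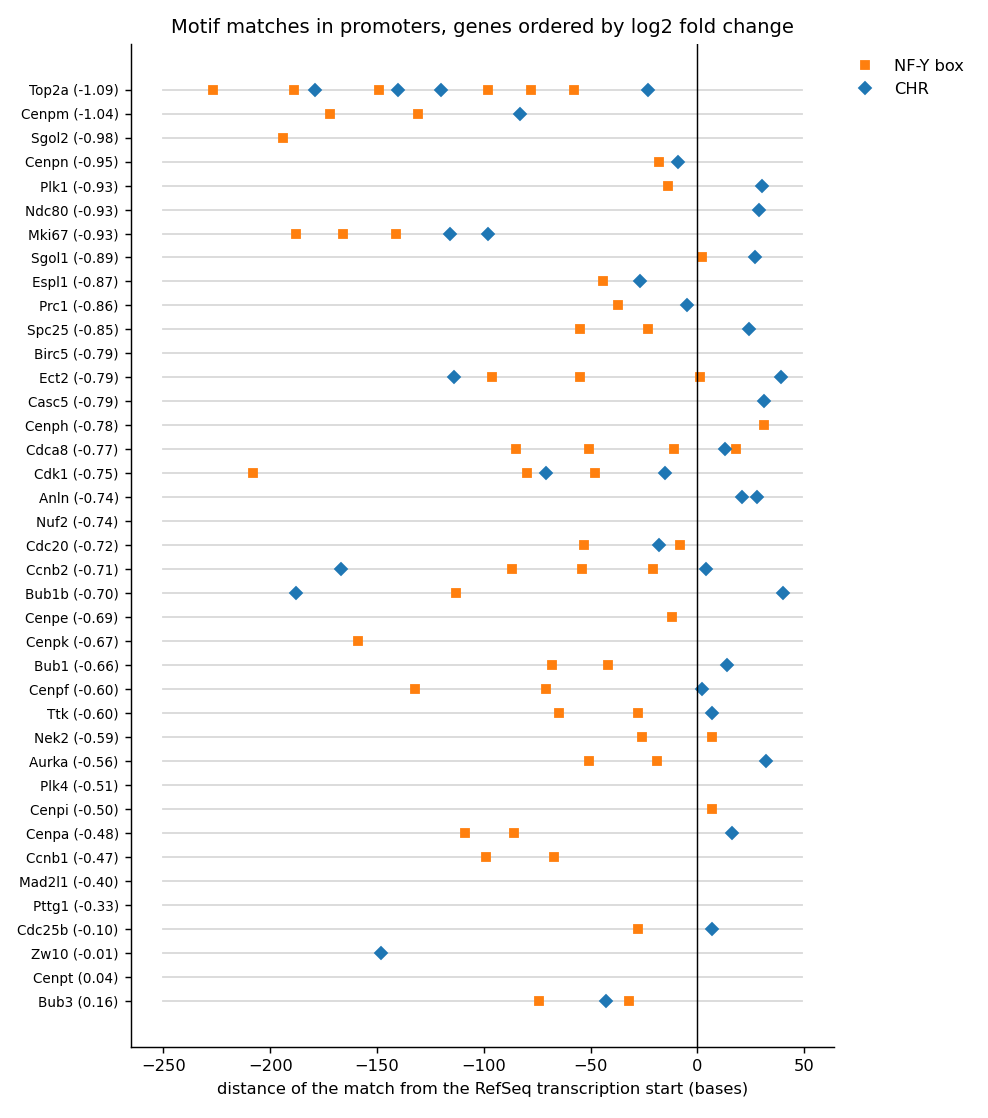
Positions of CHR (blue diamonds) and NF-Y box (orange squares) matches relative to the RefSeq start, in bases, in the first listed promoter of the 39 mitotic genes that have one, ordered by log2 fold change (in brackets, Sgol2 at the value of Sgol2a). Over all the genes, CHR matches gather close to the start, 24 of 35 within 50 bases of it, and most NF-Y boxes lie before it. Single genes differ, and the CHR matches of Top2a, at -1.09, begin at -179, -140, -120 and -23. Bub3, at 0.16 (-0.019 under spike-in scaling), also holds both kinds of match, and 6 of the promoters show no match.

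Among the cyclins, *Cdk1* and its CDC25 activators, 6 of 6 genes were below 0, with a median of -0.73, and 4 were at least 1.5-fold lower. *Ccna2*, the cyclin of S and G2 phase, had an intensity of 2245 with siRNA-NC and 1052 with siRNA-*Ppp2r5d*, a log2 fold change of -0.90. *Cdk1* itself had 944 and 492, a log2 fold change of -0.75 or 1.68-fold lower. The mitotic cyclin *Ccnb2* had 8669 and 4632 (-0.71), while *Ccnb1*, the cyclin of the main mitotic kinase complex, had 578 and 365 over 4 probes (-0.47), so the B-type cyclins were both lower and *Ccnb1* less so. The CDC25 phosphatases, which remove the inhibitory phosphates from *Cdk1*, were unlike each other. *Cdc25c* had 1045 and 522, a log2 fold change of -0.81. *Cdc25b* had 170 and 139 and a log2 fold change of -0.098. It is the gene of the set whose probes lay on either side of 0, at 0.059 for a dim probe with 52.6 on the siRNA-NC array and at -0.26 for a brighter probe with 549 and 402.

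All 5 genes of the Polo, Aurora A, NEK2 and TTK kinases were below 0, with a median of -0.59. *Plk1*, the Polo kinase that acts at centrosomes, kinetochores and the midbody, was the lowest, with 5329 and 2451, a log2 fold change of -0.93 or 1.90-fold lower. *Ttk*, the MPS1 kinase that starts checkpoint signalling at kinetochores, had 136 and 78.6 over 3 probes (-0.60), with single probes from -0.76 to -0.30. The centrosome kinase *Nek2* had 485 and 283 (-0.59). *Aurka*, which matures centrosomes and builds spindle poles, had 4562 and 2704 (-0.56), and *Plk4*, the kinase of centriole duplication, had 138 and 84.8 (-0.51). *Aurka* and *Plk4* were short of 1.5-fold.

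The chromosomal passenger complex, which corrects faulty attachments and later directs cytokinesis, was lower as a whole, and its 4 genes lay close together. Its kinase *Aurkb* had 285 and 132, a log2 fold change of -0.91 or 1.88-fold lower. The 3 subunits that place the kinase were next to each other. Survivin, *Birc5*, had 3264 and 1647 (-0.79), the scaffold *Incenp* had 2303 and 1173 (-0.78), and borealin, *Cdca8*, had 1506 and 772 (-0.77). Each of the 4 was measured by 2 probes, and every one of these probes was below 0.

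In the group of the spindle checkpoint and its target, 6 of 7 genes were below 0, 4 were at least 1.5-fold lower and the median was -0.66. *Bub1b* had 616 with siRNA-NC and 332 with siRNA-*Ppp2r5d*, a log2 fold change of -0.70 or 1.62-fold lower. It was measured by 1 probe, which the scanner files place at chr2:118466830-118466889 of build mm9. The kinase *Bub1*, its partner at kinetochores, had 900 and 500 (-0.66). *Cdc20* had 7322 and 3889 (-0.72), with its 2 probes at -0.73 and -0.71. *Mad2l1*, which encodes the MAD2 protein that binds and inhibits CDC20, had 1368 and 907 (-0.40) and was short of 1.5-fold. *Bub3*, the adaptor through which BUB1 and BubR1 reach kinetochores, did not go with them. It was the brightest gene of the set, with 14701 and 14383, and its log2 fold change of 0.16 turned to -0.019 under scaling to spike-in probes. The subunits of the RZZ complex, which brings MAD1, MAD2 and dynein to kinetochores, were also apart from each other. *Zwilch* had 247 and 118, a log2 fold change of -0.87, over 3 probes between -0.88 and -0.87. *Kntc1*, its partner from the list of other kinetochore genes, had 191 and 75.2 (-1.15), a value that rests on 1 of its 2 probes. *Zw10*, which also serves in membrane traffic between the Golgi and the endoplasmic reticulum, had 1103 and 960, and its log2 fold change of -0.0068 was 0.021 when the median of detected probes was used for scaling.

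At the centromere and inner kinetochore, 6 of 7 genes were below 0, 4 were at least 1.5-fold lower and the median was -0.67. *Cenpm*, a subunit of the constitutive centromere network, had 169 and 72.3, a log2 fold change of -1.04 or 2.05-fold lower. It has 1 probe, which spans 1428 bases of the genome in build mm9 (chr15:82070363-82071790) and so crosses a splice junction. *Cenpn*, which reads the centromeric nucleosome, had 1586 and 717 (-0.95) and was short of 2-fold. The neighbouring subunits were lower by less. *Cenph* had 434 and 221 (-0.78), *Cenpk* 418 and 230 (-0.67) and *Cenpi* 481 and 298 (-0.50). *Cenpa*, the histone variant that marks centromeres, had 2449 and 1533 (-0.48). *Cenpt*, which links the inner kinetochore to microtubule-binding complexes, had 400 and 358, and its log2 fold change of 0.035 was -0.15 under spike-in scaling. Its histone-fold partner *Cenpw*, from the list of other kinetochore genes, had 2056 and 1738 (-0.050).

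The outer kinetochore and corona were lower throughout. All 7 genes were at least 1.5-fold lower, with a median of -0.79. The NDC80 complex, the main coupler of kinetochores to microtubules, has 4 subunits, and all were in the band. *Ndc80* had 394 and 181 (-0.93), *Spc24* had 830 and 397 (-0.87), *Spc25* had 1204 and 586 (-0.85) and *Nuf2* had 565 and 296 (-0.74). The *Nuf2* value is the mean of probes at -0.96 and -0.52. *Casc5*, called *Knl1* in newer annotation, the scaffold on which BUB proteins gather, had 632 and 320 (-0.79). The corona proteins, which assemble on kinetochores that lack microtubules, had the smaller differences of the group. The kinesin *Cenpe* had 5278 and 2870 (-0.69) and *Cenpf* had 1560 and 898 (-0.60).

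Of the guards of cohesion and separase, all 3 measured genes were below 0, with a median of -0.87. *Sgol1* had 655 with siRNA-NC and 309 with siRNA-*Ppp2r5d*, a log2 fold change of -0.89 or 1.86-fold lower. Its 2 measured probes lay at chr17:53815437-53815496 and chr17:53815947-53816006 in build mm9, with log2 fold changes of -0.81 and -0.97. *Sgol2a*, the other shugoshin gene, had 191 and 84.9 (-0.98). *Espl1*, which encodes separase, the protease that cuts cohesin, had 1537 and 736 (-0.87). Securin, *Pttg1*, which holds separase inactive, had 2233 and 1558 (-0.33), the smallest difference among the genes of this group. Thus shugoshin and separase had nearly equal values, and securin was less low.

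The genes of spindle assembly and cytokinesis were all below 0, with a median of -0.77. *Prc1*, which bundles the microtubules of the central spindle, had 608 and 292 over 4 probes (-0.86). *Ect2*, the exchange factor that starts the cleavage furrow, had 301 and 152 (-0.79), and anillin, *Anln*, a scaffold of the contractile ring, had 6724 and 3521 (-0.74). *Tpx2*, the activator of Aurora A on spindles, had 1537 and 918 (-0.55), next to the value of *Aurka* itself. In the last group, *Top2a* had 757 and 312 over 4 probes, a log2 fold change of -1.09 or 2.12-fold lower, with single probes from -1.32 to -0.93. *Mki67*, which encodes a coat protein of mitotic chromosomes and is used as a mark of proliferating cells, had 6135 and 2818 (-0.93). *Foxm1*, the transcription factor that activates late cell cycle genes, had 264 and 145 (-0.67).

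The other genes of mitosis were taken from 5 lists that hold no gene of the 46. Of 109 genes, all but 2 were measured on both arrays, and their median log2 fold change was -0.14, with 79 below 0 and 28 above. At 1.5-fold, 24 (22.4%) were lower and 0 higher, and at 2-fold 5 (4.67%) were lower and 0 higher. The lists were unlike each other. All 16 other spindle and cytokinesis genes were below 0, with a median of -0.53, from *Dlgap5* at -0.98 to *Cit* at -0.065, and this median was -0.35 with normexp background correction. Of 27 other centromere and kinetochore genes, 24 were below 0, with a median of -0.31. *Nsl1*, a subunit of the MIS12 complex, had 441 and 167 (-1.21), whereas *Mis12* of the same complex had 267 and 225 (-0.049) and *Dsn1* had 331 and 298 (0.041). The *Nsl1* value rests on 1 of its 3 probes, since the others were not above background on both arrays.

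Cohesin and condensin genes had a median of -0.12 over 21 genes. At 1.5-fold, 6 (28.6%) were lower and 0 higher. The lowest was *Esco2*, an acetyltransferase of cohesin, with 171 and 74.2 (-1.01). Next were the condensin subunit *Ncapg* with 503 and 220 (1.99-fold lower) and sororin, *Cdca5*, with 1045 and 469 (-0.96). The rest of the 6 were the condensin genes *Ncaph* (-0.85), *Ncapg2* (-0.81) and *Smc2* (-0.63). Other condensin genes ran from *Ncapd2* at -0.58 to *Ncaph2* at 0.066. The core cohesin genes were closer to level, with *Smc1a* at -0.043 and *Smc3* at -0.11. The other regulators of G2 and mitotic kinases had a median of -0.044 over 25 genes, with the kinase *Melk* lowest at 561 and 229 (2.15-fold lower) and the haspin gene *Gsg2* at 258 and 127 (-0.83). *Ccna1* and *Ccnb3*, cyclins of germ cells and the 2 genes not measured, were not above background. The subunits, activators and enzymes of the anaphase-promoting complex had a median of -0.020 over 18 genes, which was 0.0072 when the median of detected probes was used for scaling. *Fbxo5*, an inhibitor of that complex, was the exception, with 759 and 269, a log2 fold change of -1.30 or 2.47-fold lower. *Ube2c* and *Ube2s*, the enzymes that pass ubiquitin to its substrates, differed in sign, with 3585 and 2179 (-0.53) for *Ube2c* and 8130 and 10662 (0.58) for *Ube2s*.

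The 46 genes were set beside 2 other gene families of dividing cells. Among 12 mitotic kinesins, all were below 0, with a median of -0.67, and 8 (66.7%) were at least 1.5-fold lower, from *Kif11* at -0.98 to *Kif23* at -0.32. Among 23 genes of the MCM helicase and of origin licensing, which act before and in S phase, the median was -0.53, 19 were below 0 and 9 (39.1%) were at least 1.5-fold lower. The spread of the licensing genes was wider, from *Mcm5* with 2083 and 474 (-1.94) to *Dbf4* at 0.31. Of the 23, 4 were at least 2-fold lower, beside 2 of the 46 mitotic genes. Next to *Mcm5* these were the loading factor *Cdc6* with 101 and 26.7 (-1.73), the helicase subunit *Mcm6* with 866 and 332 (-1.19) and the helicase cofactor *Cdc45* at -1.05. With normexp background correction the median of the kinesins was -0.39 and that of the licensing genes -0.34, beside -0.63 for the mitotic genes, so the kinesins were close to the mitotic genes with the main setting and less so with this one. The differences between the lists were not tested.

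**Figure D4:**
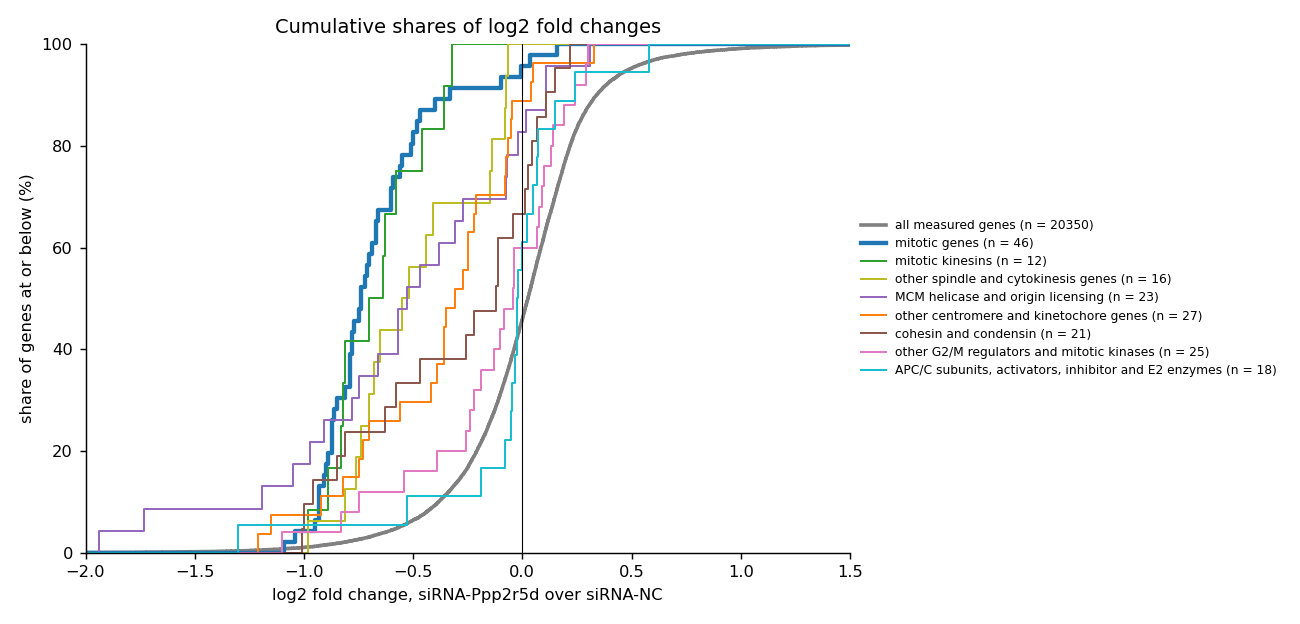
Share of genes, in percent, at or below each log2 fold change (siRNA-Ppp2r5d over siRNA-NC) for all 20350 measured genes (grey), the 46 mitotic genes (thick blue) and the 7 lists set beside them. The curve of the mitotic genes climbs steeply around its median of -0.74, that of the kinesins runs close to it, and at -0.5 those of the other lists lie between it and the curve of all genes or close to the latter. In the lower tail some curves cross it, with 4 of 23 genes of the MCM list at least 2-fold lower beside 2 of 46.

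The median of the mitotic genes stayed below that of all genes in each of the 10 other ways of processing that were run. Relative to the median of all genes under the same setting, the median of the mitotic genes was -0.77 with the main setting, -0.77 with quantile normalization, cyclic loess, spike-in scaling and the authors' own log2 values, and -0.69 with another background correction. With spike-in scaling all genes moved by -0.18 on the log2 scale, and then 46 of 46 mitotic genes and 74.6% of all measured genes were below 0. The number of mitotic genes at least 1.5-fold lower ran from 27 to 40 over the 10 other settings, and all 34 of the main setting were among the 40 with spike-in scaling. The number at least 2-fold lower ran from 0 to 14. *Cenpn*, *Mki67*, *Plk1* and *Ndc80* were next to the threshold, between 1.94-fold and 1.90-fold lower.

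**Figure D5:**
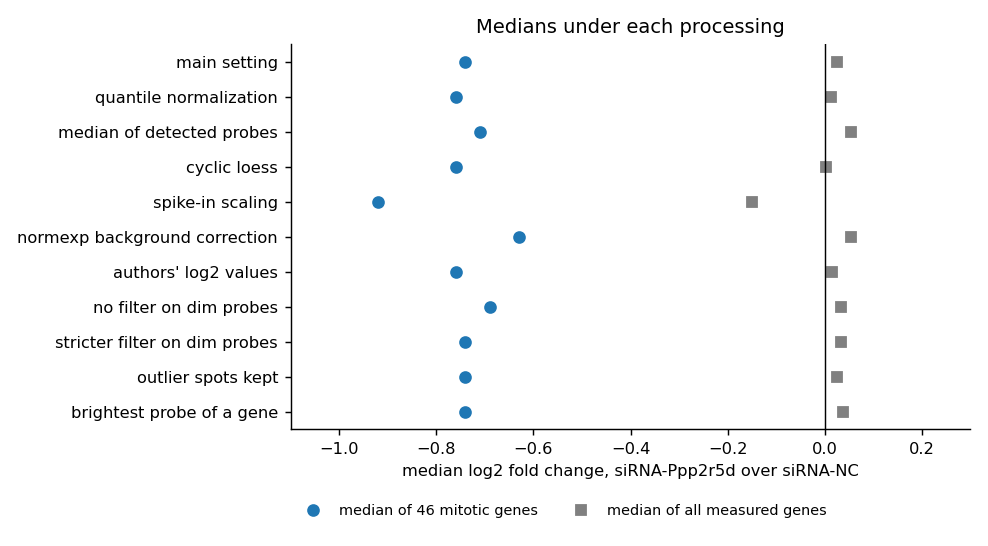
Median log2 fold change, siRNA-Ppp2r5d over siRNA-NC, of the 46 mitotic genes (blue dots) and of all measured genes (grey squares) under the main setting and 10 other ways of processing. The blue dots lie between -0.92 and -0.63 and the grey squares between -0.15 and 0.055, and with spike-in scaling both moved to the left together.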

How the data were processed

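The RNA of 1 culture of MCMs per siRNA (siRNA-NC, siRNA-*Ppp2r5d*) was hybridized to an Agilent mouse array in 1 colour, and by the file headers both arrays lie on the same slide. The authors deposited the background-corrected intensity of each spot, from Agilent Feature Extraction 10.7.1.1, and a table of log2 values for 56605 probes. The normalization of that table is not stated in the sources used here. Its values matched a quantile normalization of the intensities with a median absolute difference of 3.63e-04, and both columns have a median of 5.02.

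Outlier spots were left out (126 and 95), log2 was taken of each spot, and the log2 values of a probe's spots were averaged. Each array was then centred on its 75th percentile, found over 56604 non-control probes. A gene's value is the mean over its probes well above background on both arrays, and its printed intensity the geometric mean of them. A gene above background on 1 array gave a bound and counts among the 21667 genes. The lowest signals well above background were 14.9 and 13.5. Of the 47 names, 44 are symbols in GRCm38 and 3 are synonyms there. All members were named, and from the other lists those at least 2-fold changed, with further genes chosen after their values were seen. The members and the lists were chosen with earlier results of these data known.

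The study's methods name a fold of 2 and a t-test. With 1 array per condition no such test can be run, and p-values were not computed. The gene step was also run on simulated data of 21138 genes, in which 200 had been given a 3-fold change. The second array of the simulation was a copy of the siRNA-NC array with random noise that was small against the 2-fold threshold. The detection flags were copied too, and only genes bright on that array were changed. It found all 200 and called 0 others. With these settings false calls could hardly arise, and the run says nothing about dim genes. That change is larger than the 1.67-fold at the median of the mitotic genes, so the run does not show how well differences of that size are found. The spread between cultures is unknown and could not be part of the simulation. Probe coordinates are of build mm9 and promoters of GRCm38.p6, and none were converted. The software was limma 3.58.1 in R 4.3.3, and pandas 2.3.3, NumPy 2.4.6 and matplotlib 3.10.9 in Python 3.11.15. For scaling, the alternatives were cyclic loess, quantile normalization, 8 spike-in probes and the median of detected probes. The others were the authors' log2 values, normexp with an offset of 50, no filter or a stricter filter on dim probes, keeping outlier spots, and the brightest probe of a gene.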

Additional observations from a re-analysis of the deposited data

How the results depend on the processing

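With 1 array per condition, the spread between cultures is unknown, and the settings below say how far the values rest on the processing only. In all 10 alternatives the median of the mitotic genes was below 0. It was -0.92 with spike-in scaling, -0.63 with normexp background correction and -0.69 with no filter on dim probes, against -0.74 with the main setting. The number of mitotic genes at least 2-fold lower was 2 with the main setting, 1 with quantile normalization, 1 with cyclic loess, 1 with the authors' log2 values, 0 with normexp and 14 with spike-in scaling. *Ppp2r5d* had a log2 fold change of -2.79 with spike-in scaling and -2.49 with normexp. Spike-in scaling by its design moved every gene by the same -0.18, and the cause of the other shifts was not tested. Of 470 values of single genes under the alternatives, 325 moved by less than the SD between spots, 145 by more, and 0 of the genes at least 1.5-fold changed turned their sign. Of 170 medians of lists, 111 moved by less than this SD and 59 by more. *Bub3* and *Cenpt* were below 0 with spike-in scaling, and *Zw10* was above 0 when the median of detected probes was used. Signal over background limits the dim genes, and among the 46 *Cenpm* moved most with normexp, to -0.63 from -1.04. No paired analysis was possible because each condition has 1 array, so that no block can be fitted.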
